A study of Arabidopsis thaliana with 70 samples.

Results

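Messenger RNA of rdd and wild-type (WT) seedlings of Arabidopsis thaliana was compared after 1 h of flg22. The comparison rests on 6 of the 70 samples of the series, 3 RNA libraries of rdd and 3 of WT, chosen by the genotype and treatment in their labels. All 6 came from 10-day-old seedlings given 100 nM flg22 for 1 h, so both genotypes carried the treatment. WT is the unmutated line, for which the labels name no accession. rdd is the triple mutant ros1 dml2 dml3, in which 3 DNA demethylase genes are mutated in every cell and DME, the remaining member of the family, is intact. Seedlings at 0 h and 3 h of flg22 (6 libraries each) and leaves of 4-week-old plants 24 h after water or flg22 (12 libraries) were used to look up the same genes elsewhere. Leaves of 4-week-old plants given water or flg22 and 24 h later the bacterium DC3000 hrcC for 1 h (8 libraries) were looked at without a test. The series holds no seedlings given water for 1 h, so the hour of sampling goes with flg22 in both genotypes. Each sample is a whole seedling mixture, in which fewer cells of a type and less RNA per cell cannot be told apart.

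ROS1, DML2 and DML3 encode DNA glycosylases that cut 5-methylcytosine out of DNA, after which repair puts in an unmethylated cytosine. They act at promoters, transposon edges and gene ends, and loss of ROS1 is known to leave methylation on some genes and to silence them. flg22 is a peptide of bacterial flagellin, one of the microbe-associated molecular patterns (MAMPs) that plants sense from outside the cell. It is bound by the receptor kinase FLS2 together with BAK1, and within minutes this sets off an oxidative burst, MAP kinase signalling and the induction of defence genes. The comparison asks which transcripts the demethylase mutant holds at another level during that early response.

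At 1 h few genes were called different between the genotypes, and the largest differences among the calls were losses in rdd. Among 18886 tested genes, 31 were lower in rdd (0.164%) and 23 higher (0.122%), together 54 genes or 0.286%, at an adjusted p under 0.05 (limma, Benjamini-Hochberg adjustment over all tested genes). All 31 lower genes and 14 of the 23 higher ones differed by at least 2-fold on the log2(FPKM + 1) scale, on which every log2 difference below is given, as rdd minus WT ± SE. FPKM are fragment counts scaled by gene length and by the library's total. In all 54 genes the 3 rdd libraries lay entirely above or below the 3 WT libraries, which was so in 18.4% of all tested genes. The median difference of all tested genes was 0.11, and it was -0.01 when libraries were rescaled by the median ratio, which gave 44 lower and 16 higher genes (26.7% of the calls higher, against 42.6%). Without rdd replicate 1 only 7 higher genes were called and 20 lower, without WT replicate 3 it was 8 and 21, without WT replicate 1 it was 12 and 25, and without rdd replicate 2 it was 15 and 24. 25 of the 54 genes, 18 lower and 7 higher, stayed called without each of the 6 libraries in turn.

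The 6 libraries differed little in the measures the files allow, and WT replicate 3 lay at the edge of several. Their total FPKM ran from 984920 to 1040400, genes above 0 numbered 21004 to 21765, and organelle genes took 0.273% to 0.809% of the total. Pearson's r across genes was 0.976 to 0.984 between WT libraries, 0.982 to 0.984 between rdd libraries and 0.964 to 0.983 across the genotypes. WT replicate 3 held the highest total, the fewest genes above 0 and the highest organelle share. Its pairs with the other libraries had r of 0.964 to 0.977, and the remaining pairs 0.974 to 0.984. The summed level of 21 early MAMP-response markers was 1742, 1376 and 1166 FPKM in WT and 1279, 1486 and 1318 FPKM in rdd, so WT replicates 1 and 3 held the highest and the lowest value and the groups overlapped. Whole seedlings should hold roots and green tissue, and the root gene PYK10 stood at 945 to 1677 FPKM and the photosynthesis gene RBCS3B at 2982 to 5752 FPKM over the 6 libraries. FPKM carry no read counts, so the depth behind a value is unknown, and 3 genes whose median over the 6 libraries reached 20 FPKM are listed at 0 in at least 1 of them. A gene listed at 0 throughout a group is therefore given without a fold.

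At 1 h the transcripts of the mutated genes did not separate the genotypes. ROS1 (AT2G36490) stood at 4.97, 8.82 and 5.45 FPKM in WT and at 5.29, 5.93 and 3.88 FPKM in rdd (-0.28 ± 0.26, adjusted p = 0.74). DML2 (AT3G10010) stood at 0.62, 1.04 and 0.43 FPKM in WT and at 0.26, 0.73 and 0.18 FPKM in rdd (-0.29, adjusted p = 0.74). DML3 (AT4G34060) reached at most 0.12 FPKM in a WT library, was listed at 0 in the 3 rdd libraries, and was too low to test. The ranges of ROS1 and DML2 overlapped, so in seedlings these RNA levels give no check of the rdd label. In flg22-treated leaves DML3 stood at 2.26, 2.66 and 3.57 FPKM in WT and 0.42, 0.27 and 0.33 FPKM in rdd (-1.50 ± 0.19, adjusted p = 0.017, lost without 5 of the 6 libraries, adjusted p up to 0.1). In water-treated leaves it stood at 1.89, 1.76 and 2.71 FPKM in WT and 0.39, 0.7 and 0.49 FPKM in rdd, also without overlap (adjusted p = 0.14). ROS1 went the other way in leaves, higher in rdd without overlap after either treatment and not called. After flg22 it stood at 10.6, 15.3 and 14.3 FPKM in WT and 21.7, 23.8 and 25.5 FPKM in rdd (0.79 ± 0.16, adjusted p = 0.22). DML2 was lower in rdd without overlap after flg22, overlapped after water, and was not called. DME (AT5G04560), the intact demethylase, stood at 4.99, 5.72 and 2.66 FPKM in WT and 6.56, 8.61 and 5.45 FPKM in rdd (0.56 ± 0.29, adjusted p = 0.57). None of the 12 tested genes of the demethylation pathway passed the test in limma, and 1 of them had an unadjusted p under 0.05.

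Some of the strongest losses were of transcripts that WT seedlings held before flg22 as well. MRD1 (AT1G53480), a gene named for its lower level in the methionine mutant mto1, stood at 75.8, 64.7 and 82.9 FPKM in WT and at 0.2, 0.22 and 0.08 FPKM in rdd (-6.01 ± 0.17, adjusted p = 5.2e-13). AT3G01345 stood at 94.1, 119 and 109 FPKM in WT and was listed at 0 in the 3 rdd libraries (adjusted p = 5.6e-15). AT2G33830, a gene of the dormancy- and auxin-associated family and the most abundant of the 54, stood at 2817, 2883 and 3534 FPKM in WT and 366, 347 and 375 FPKM in rdd (-3.08 ± 0.15, adjusted p = 2.4e-09). In each of these genes the lowest WT library lay far above the highest rdd library, and the libraries within a group lay close together. The ratio of the group means was 447 for MRD1 and 8.49 for AT2G33830. All 3 genes were also lower in rdd at 0 h and at 3 h, so the loss was present before flg22. MRD1 overlaps HEI10 in the annotation, and the sources used here do not state whether reads were counted by strand.

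**Figure D1:**
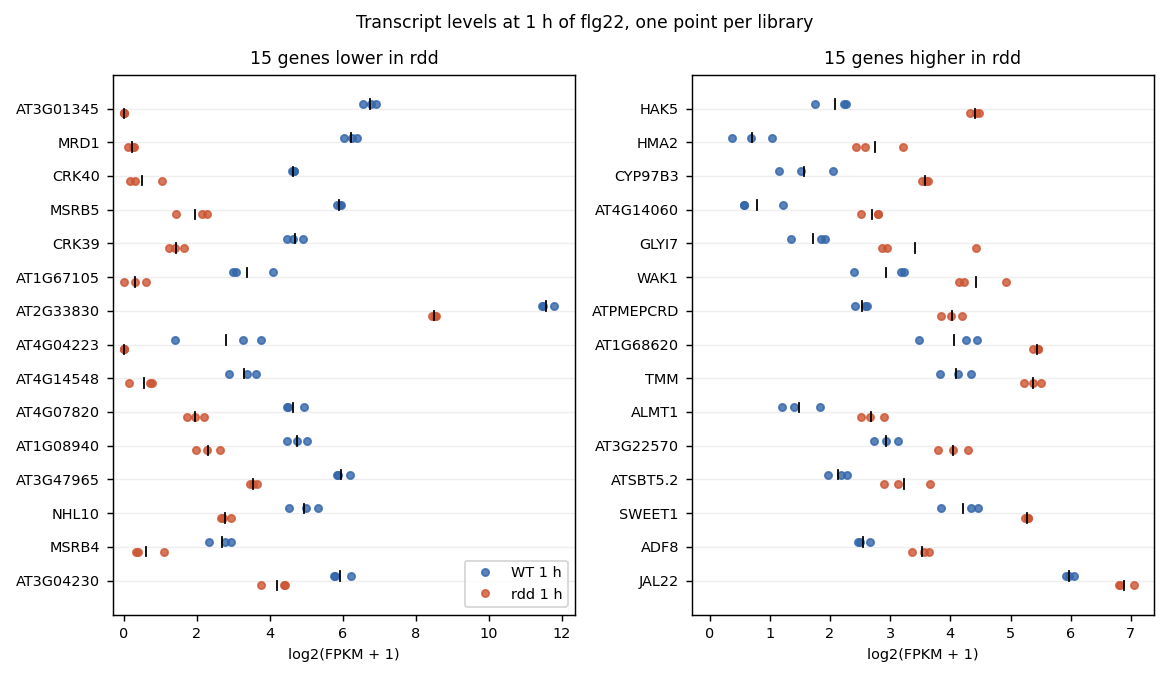
Levels at 1 h of flg22 as log2(FPKM + 1) for the 15 genes with the largest decreases (left) and the 15 with the largest increases (right) among the calls whose higher group reached 5 FPKM. Points are libraries (WT blue, rdd red, n = 3 each) and black ticks are means on the log scale; in every gene shown the groups do not overlap, with MRD1 and AT3G01345 near 0 in rdd and HAK5 and HMA2 near the low end in WT.

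Several of the lower genes lay, with uncalled genes between them, within a region of chromosome 4. It holds the cysteine-rich receptor-like kinase genes CRK36 to CRK40 and the methionine sulfoxide reductase B genes MSRB3 to MSRB6. CRKs are membrane kinases with a cysteine-rich outer domain, many of them raised by MAMPs, and MSRB enzymes reduce oxidised methionine in proteins. CRK40 (AT4G04570) stood at 24.1 ± 0.50 FPKM (SD, n = 3) in WT, the highest library at 24.6, and at 1.07, 0.14 and 0.24 FPKM in rdd (-4.14 ± 0.20, adjusted p = 1.3e-09). CRK39 (AT4G04540) stood at 29.2, 24.1 and 21.5 FPKM in WT and at 1.36, 2.18 and 1.65 FPKM in rdd (-3.25 ± 0.18, adjusted p = 6.6e-09). The remaining members CRK36, CRK37 and CRK38 reached at most 1.05 FPKM in any of the 6 libraries and were too low to test, so both tested members of the 5 were lower. MSRB5 (AT4G04830) stood at 61.6, 56.4 and 59.9 FPKM in WT and 3.85, 3.42 and 1.72 FPKM in rdd (-3.96 ± 0.26, adjusted p = 9.4e-08). MSRB4 (AT4G04810) stood at 4.05, 5.92 and 6.74 FPKM in WT and 0.26, 1.14 and 0.32 FPKM in rdd (-2.08 ± 0.29, adjusted p = 0.0019; 0.11 with a pseudocount of 0.1). In all 4 genes every rdd library lay below every WT library by a wide margin. Their neighbours differed little: MSRB3 (0.07 ± 0.11, adjusted p = 0.85), MSRB6 (-0.45 ± 0.24, adjusted p = 0.58) and APR1 (0.09 ± 0.17, adjusted p = 0.89), a gene of sulfate reduction, did not pass the test.

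This region, from RLP46 to MSRB6 in annotated order, spans 124 annotated genes, of which 33 were tested. Of the 33, 15 had a difference below 0. The 5 called (15.2%, against 0.598% of the tested genes of chromosome 4 and 0.286% of all) were all lower in rdd. The region was bounded around these calls, so the share is a description. The fifth is AT4G04223, a non-coding RNA gene beside RLP46, with 12.5, 8.64 and 1.67 FPKM in WT and listed at 0 in the 3 rdd libraries (adjusted p = 0.0062; 0.13 when the fit held the 6 libraries alone). RLP46, a receptor-like protein gene, did not differ beyond its spread (0.09, adjusted p = 0.91). The 2 other reductases of the list with the smallest p-values lie elsewhere on the chromosome and were not called: MSRB9 stood at 499, 409 and 421 FPKM in WT and 341, 389 and 332 FPKM in rdd (-0.32 ± 0.13, adjusted p = 0.47), and MSRB7 overlapped between the groups (0.49 ± 0.20, adjusted p = 0.48). Over the 9 tested MSRB genes the median difference was 0.00, against 0.11 for all genes. CRK and MSRB genes sit in tandem arrays of similar copies, between which fragments can be misassigned. Of 23 tested CRK genes outside the region none was called, with 1 at an unadjusted p under 0.05.

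**Figure D2:**
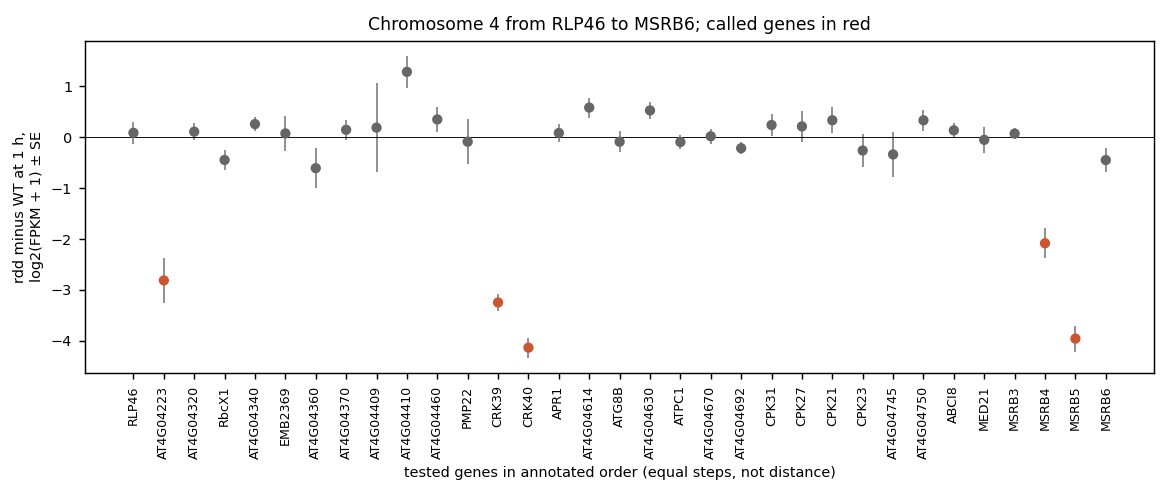
Difference rdd minus WT at 1 h in log2(FPKM + 1), ± SE, for the 33 tested genes of chromosome 4 from RLP46 to MSRB6, in annotated order with equal steps. The 5 called genes (red) lie between -2.08 and -4.14, while their neighbours (grey) scatter around 0.

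CRK39 and NHL10 were the genes whose genotype difference passed the test for a change between 0 h and 1 h of flg22. CRK39 was listed at 0 to 0.03 FPKM in the 6 libraries at 0 h, and on flg22 it rose by 4.67 in WT and by 1.44 in rdd. Its genotype difference at 1 h minus that at 0 h was -3.23 ± 0.25 (interaction adjusted p = 7.8e-06), although with a pseudocount of 0.1 that p was 0.12. Because CRK39 was near 0 at the start in both genotypes, the interaction holds the same information as the difference at 1 h. By 3 h it had fallen to 1.46, 0.74 and 0.99 FPKM in WT and 0.07, 0 and 0.04 FPKM in rdd, so its peak at 1 h was transient in WT. On the log2(FPKM + 1) scale the difference at 3 h minus that at 1 h was 2.27 ± 0.25 (interaction adjusted p = 0.0014), but with a pseudocount of 0.1 it was 0.71 (adjusted p = 0.49), a value added after seeing the data. The ratio of the WT mean to the rdd mean went the other way, from 14.4 at 1 h to 29.0 at 3 h, so these data do not show a smaller difference at 3 h.

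NHL10 (AT2G35980, YLS9 in the annotation), a gene of the NDR1/HIN1-like family and a common marker of the flg22 response, was expressed before treatment in both genotypes. At 0 h it stood at 6, 5.51 and 6.27 FPKM in WT and 7.67, 7.5 and 9.53 FPKM in rdd. At 1 h it stood at 39.4, 30.9 and 22 FPKM in WT and 5.41, 6.65 and 5.55 FPKM in rdd (-2.18 ± 0.18, adjusted p = 2.3e-06). Thus all WT libraries rose on flg22, while the rdd libraries lay at or below their 0 h level, with responses of 2.16 in WT and -0.42 in rdd. The interaction was -2.58 ± 0.25 (adjusted p = 1.5e-04). At 3 h NHL10 was still lower in rdd, at 3.8, 2.83 and 3.79 FPKM against 28.6, 29.5 and 25.2 FPKM in WT (adjusted p = 1.3e-07). These were the only 2 of 18886 genes (0.0106%) whose genotype difference changed between 0 h and 1 h at an adjusted p under 0.05. Between 1 h and 3 h it was CRK39 alone (0.00529%), and no gene with a pseudocount of 0.1.

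**Figure D3:**
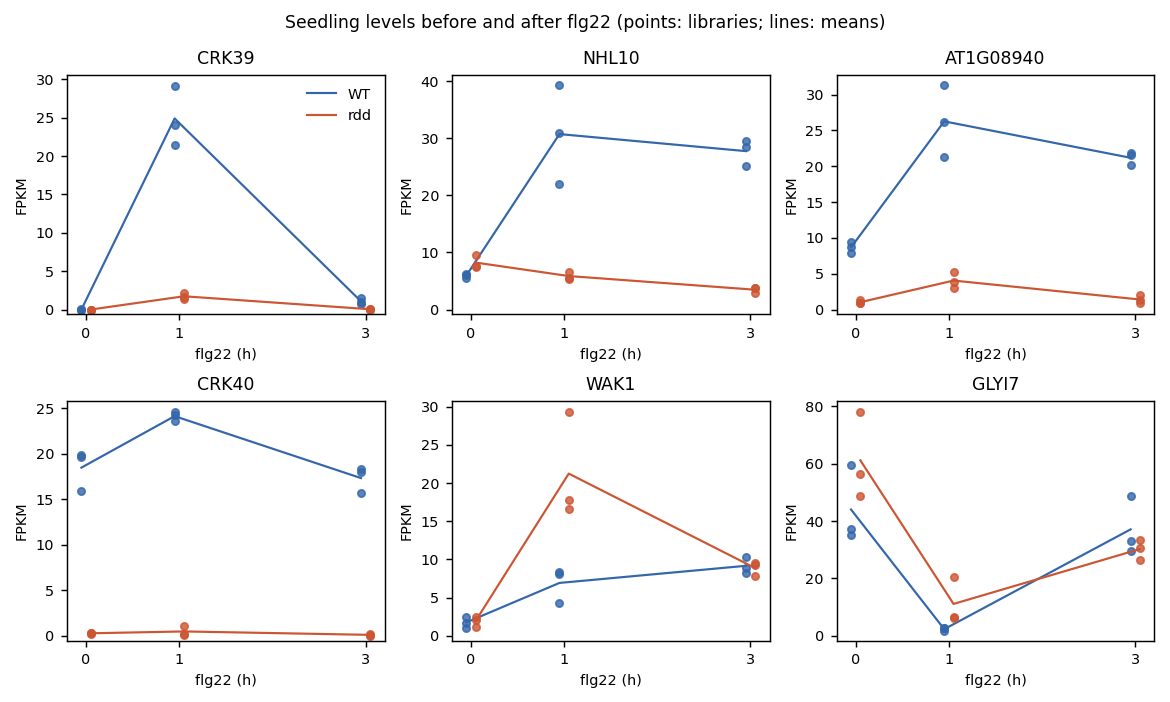
FPKM at 0, 1 and 3 h of flg22 for 6 genes called at 1 h, with points for libraries, lines through group means, WT in blue and rdd in red (n = 3 per group and time). CRK39 and NHL10 rise in WT at 1 h and stay low in rdd, AT1G08940 rises in both from unequal levels, and CRK40 is near 0 in rdd throughout. WAK1 and GLYI7 are called at 1 h and not at 0 h or 3 h, but a change of their genotype difference between times did not pass the test.

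NHL12 (AT2G35960), another gene of the NHL10 family a few genes away on chromosome 2, was lower too. It stood at 16.2, 22.4 and 21.2 FPKM in WT and 9.58, 10.5 and 6.35 FPKM in rdd (-1.11 ± 0.18, adjusted p = 0.0088). Unlike NHL10 it was called lower at 0 h as well, and it fell on flg22 in both genotypes. Its call was lost without WT replicate 3 (adjusted p = 0.069), WT replicate 2 or rdd replicate 3 (0.052 each), and when the fit held the 6 libraries alone (0.099). PUB23, a ubiquitin ligase gene raised by flg22 that opens the same stretch of 7 tested genes, was not called (adjusted p = 0.84). ROS1 (AT2G36490), itself mutated in rdd, lies close to NHL10 and NHL12 on chromosome 2 in identifier order. Whether sequence carried along with the ros1 allele bears on these genes was not tested.

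Other flg22-raised genes were lower in rdd at 1 h. AT1G08940 stood at 31.3, 26.2 and 21.3 FPKM in WT and 5.24, 2.98 and 3.91 FPKM in rdd (-2.44 ± 0.20, adjusted p = 2.1e-06). It was already lower at 0 h, at 0.87, 1.31 and 0.9 FPKM in rdd against 8.76, 9.41 and 7.84 FPKM in WT, and its interaction was -0.18 (adjusted p = 1). AT4G11000 stood at 5.01, 3.34 and 4.1 FPKM in WT and 1.04, 0 and 0.28 FPKM in rdd (-1.89 ± 0.24, adjusted p = 6.4e-04; 0.07 with a pseudocount of 0.1). It had at most 0.12 FPKM at 0 h, rose by 2.24 in WT and 0.46 in rdd, and its interaction did not pass the test (adjusted p = 0.38). AT1G51913, chosen here after its values were seen, missed the threshold in spite of a wide gap. It stood at 57.1, 35.2 and 24.7 FPKM in WT and 5.01, 8.09 and 5.92 FPKM in rdd, without overlap (-2.39 ± 0.52, adjusted p = 0.078; 0.012 when the fit held the 6 libraries alone).

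ACS11 (AT4G08040), a gene of ethylene synthesis, was lower in rdd at 1 h. It stood at 4.34, 3.4 and 2.98 FPKM in WT and at 0.39, 0.71 and 0.9 FPKM in rdd (-1.46 ± 0.25, adjusted p = 0.011). It was called at 3 h and not at 0 h, and the call at 1 h was lost without WT replicate 1 (adjusted p = 0.092) or rdd replicate 1 (0.095). The remaining lower genes included SELT, AT3G47965, AT4G07820, AT4G14548, AT1G67105, AT3G04230 and AT2G30740. AT3G47965 had 72.1, 56.1 and 57.3 FPKM in WT and 9.94, 11.5 and 10.7 FPKM in rdd (-2.42 ± 0.19, adjusted p = 1.5e-06). AT4G14548 and AT1G67105 are non-coding RNA genes, with 6.4 to 11.3 and 6.92 to 16.1 FPKM in WT and at most 0.71 and 0.53 FPKM in rdd. The call of AT4G07820 was lost with a pseudocount of 0.1 (adjusted p = 0.35) and without rdd replicate 3 (0.052). AT3G04230 lost its call without each of the 6 libraries (adjusted p up to 0.19). The lower group also held SADHU3-2, a retroelement, and the pseudogene AT1G43590, both listed at 0 in the 3 rdd libraries and at no more than 2.4 FPKM in WT. Each of these 2 calls was lost in 5 of the 6 fits without a library. Over all 54 genes, 48 are annotated as protein-coding, 4 as non-coding RNA (1 of them lncRNA) and 2 as pseudogenes.

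HAK5 and HMA2, both transport proteins, had the largest increases in rdd among the called genes. HAK5 (AT4G13420), the high-affinity potassium transporter of roots, stood at 3.82, 3.71 and 2.36 FPKM in WT and 19, 21.3 and 20.5 FPKM in rdd (2.32 ± 0.16, adjusted p = 1.4e-07). HMA2 (AT4G30110), a zinc and cadmium pump, stood at 0.3, 1.04 and 0.61 FPKM in WT and 4.41, 8.3 and 5.02 FPKM in rdd (2.05 ± 0.28, adjusted p = 0.0016). SWEET1 (AT1G21460), a sugar transporter, stood at 13.3, 19.3 and 21.1 FPKM in WT and 36.8, 38.1 and 38.1 FPKM in rdd (1.06 ± 0.15, adjusted p = 0.0019; 0.053 when the fit held the 6 libraries alone). The groups were well apart in all 3, and these genes were also called higher at 0 h and at 3 h. ALMT1 (AT1G08430), a malate channel of roots, stood at 1.64, 2.57 and 1.31 FPKM in WT and 6.45, 5.31 and 4.7 FPKM in rdd (1.21 ± 0.22, adjusted p = 0.023). Its call was lost without WT replicate 1 (adjusted p = 0.12), WT replicate 3 (0.16), rdd replicate 1 (0.16) or rdd replicate 2 (0.089). Root markers stood above 0 in rdd in 11 of 11 tested members, with a median of 0.36 against 0.11 for all genes. With median-ratio scaling 10 of 11 were above 0, with a median of 0.25. Their summed level was 1481 to 1572 FPKM in WT and 1658 to 2376 FPKM in rdd. PYK10 made up most of that level (means 1022 and 1368 FPKM) and overlapped between the genotypes. Of the 11 members 4 had an unadjusted p under 0.05 and none was called. Their part in the levels of these root genes was not tested.

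TMM (AT1G80080), a receptor-like protein that spaces stomata, was higher in rdd at every seedling time. At 1 h it stood at 13.2, 19.4 and 16.5 FPKM in WT and 36.2, 40.4 and 44.7 FPKM in rdd (1.27 ± 0.14, adjusted p = 1.3e-04). The other stomatal lineage and guard cell markers did not pass the test, so TMM was 1 of 11. POLAR, a polarity factor of dividing stomatal precursors, stood at 1.78, 3.58 and 2.39 FPKM in WT and 6.27, 4.81 and 5.74 FPKM in rdd (0.91 ± 0.26, adjusted p = 0.24). FAMA and SPCH, transcription factors of the lineage, had differences of 0.62 (adjusted p = 0.36) and 0.56 (adjusted p = 0.41) with no overlap between groups. EPF2, which encodes a peptide that limits entry into the lineage and is reported as a target of ROS1, stood at 4.26, 2.2 and 5.98 FPKM in WT and 1.93, 1.14 and 2.53 FPKM in rdd (-0.80 ± 0.34, adjusted p = 0.49). EPF2 was called lower at 3 h (adjusted p = 0.021), a call lost without rdd replicate 2 (0.073), WT replicate 2 (0.11) or WT replicate 3 (0.094) of that time. The median of the stomatal list was 0.36, and 0.27 with median-ratio scaling, with a summed level of 94.6 to 104 FPKM in WT and 127 to 153 FPKM in rdd.

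WAK1 and GLYI7 were called higher in rdd at 1 h and not at 0 h or 3 h. WAK1 (AT1G21250), a wall-associated kinase that senses pectin fragments, stood at 8.41, 8.1 and 4.26 FPKM in WT and 29.3, 17.7 and 16.6 FPKM in rdd (1.49 ± 0.26, adjusted p = 0.017). It rose by 1.51 in WT and by 2.90 in rdd from overlapping levels at 0 h, yet the interaction did not pass the test (1.40, adjusted p = 1). GLYI7 (AT1G80160), of the glyoxalase family that clears methylglyoxal, stood at 2.62, 1.56 and 2.79 FPKM in WT and 20.4, 6.28 and 6.69 FPKM in rdd (1.70 ± 0.34, adjusted p = 0.041). It fell on flg22 by 3.74 in WT and by 2.52 in rdd, an interaction of 1.22 that did not pass the test either (adjusted p = 1). rdd replicate 1 held the highest level of both genes, and without it neither was called (adjusted p = 0.14 for each). WAK1 was also lost without WT replicate 3 (0.12) and GLYI7 without each of the 3 WT replicates (0.12 to 0.14) and with median-ratio scaling (0.13). CYP97B3, a cytochrome P450 gene, had 3.12, 1.22 and 1.86 FPKM in WT and 11.4, 10.5 and 11 FPKM in rdd (2.01 ± 0.35, adjusted p = 0.014); leaving out a library ended the call in 5 of 6 cases (adjusted p up to 0.083). AT4G14060 (1.91 ± 0.25, adjusted p = 7.8e-04), ATPMEPCRD (AT2G43050), a pectin methylesterase gene (1.48 ± 0.19, adjusted p = 7.8e-04), and AT1G68620 (1.38 ± 0.21, adjusted p = 0.0041; 0.064 when the fit held the 6 libraries alone) stayed called without each library. JAL22, ADF8, ATSBT5.2 and AT3G22570 were higher by 0.91 to 1.12, and each lost its call without rdd replicate 1 (adjusted p = 0.06 to 0.15).

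The flg22 response as a whole had close medians in both genotypes. Over both genotypes together, 1143 genes (6.05%) were called and at least 2-fold higher at 1 h than at 0 h, and 262 (1.39%) at least 2-fold lower. The raised genes had a median response of 1.70 in WT and 1.76 in rdd, and the lowered ones -1.30 and -1.19. At 1 h the rdd minus WT difference of the raised genes had a median of 0.01 and ran from -0.51 to 0.45 between its 5th and 95th percentile. Among the raised genes 1 was called higher in rdd (WAK1) and 3 lower (CRK39, AT1G08940 and AT4G11000), or 0.35%, near the 0.286% of all genes. Among the lowered genes 1 was called higher (GLYI7) and 2 lower (NHL12 and AT5G18840), or 1.15%; the call of AT5G18840 was lost without 4 of the 6 libraries (adjusted p up to 0.14). The responsive genes were picked with the same 1 h libraries, so these medians describe them and test nothing.

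**Figure D4:**
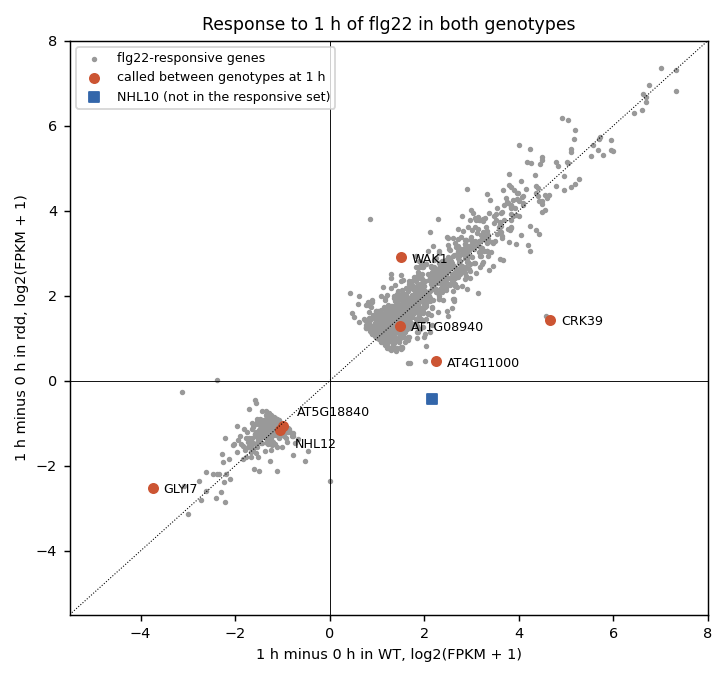
Change from 0 h to 1 h of flg22 in WT (horizontal) and rdd (vertical), in log2(FPKM + 1), for the 1143 raised and 262 lowered genes; the dotted line marks equal responses. The 7 genes called between genotypes at 1 h are red, and NHL10, whose average response was too small for the set, is a blue square; CRK39, AT4G11000 and NHL10 lie below the line and WAK1 above it.

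In the 32 gene lists drawn up for defence, hormones, chromatin and cell types, most members did not pass the test. Of 454 tested members 7 were called (1.54%, against 0.286% of all genes), 6 lower and 1 higher. Lists holding CRK and MSRB genes were drawn up with earlier results known, so this share is a description. The 7 are CRK39, CRK40, MSRB4, MSRB5, NHL10, ACS11 and TMM, all described above. The other 27 lists, with 394 tested members, had no call in limma, the smallest adjusted p being 0.078, and 47 members (11.9%) had an unadjusted p under 0.05, against 9.28% of all genes. Their medians are given beside the 0.11 of all genes and describe the lists only.

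In the lists of early MAMP-response markers, MAMP receptors and signalling, receptor-like proteins and NLR immune receptors, NHL10 was the single call. FLS2, the flg22 receptor, stood at 78.3, 68.3 and 63 FPKM in WT and 64.8, 74 and 63.1 FPKM in rdd (-0.05, adjusted p = 0.92). FRK1, a classical flg22 marker, stood at 18.3, 4.52 and 5.06 FPKM in WT and 11.4, 9.33 and 9.02 FPKM in rdd, with the WT libraries on both sides of the rdd libraries. Of 21 early MAMP-response markers NHL10 alone was called, and the median was 0.09. Among 38 receptor and signalling genes none was called (2 at an unadjusted p under 0.05), with a median of 0.07. The smallest p there was that of the adaptor kinase gene SOBIR1, at 106, 113 and 73.9 FPKM in WT and 146, 123 and 128 FPKM in rdd (0.46 ± 0.18, adjusted p = 0.47). RMG1, an immune receptor gene whose promoter is a reported target of active demethylation, stood at 1.27, 0.76 and 0.88 FPKM in WT and 0.66, 0.4 and 0.71 FPKM in rdd (-0.31 ± 0.19, adjusted p = 0.63). RLP43, another reported target, reached at most 0.28 FPKM and was too low to test. The receptor-like protein gene RLP12 stood at 41.8, 32.5 and 30.9 FPKM in WT and 18.8, 19.8 and 20.7 FPKM in rdd, without overlap and without a call (-0.79 ± 0.21, adjusted p = 0.21).

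Hormone lists gave no call apart from ACS11. The salicylic acid and systemic resistance list had a median of 0.39 (0.26 with median-ratio scaling), and 16 of 19 tested members were above 0, of which 6 had an unadjusted p under 0.05. PAD4, a regulator of salicylic acid defence, stood at 23.4, 23 and 21 FPKM in WT and 31.7, 25.9 and 31.9 FPKM in rdd (0.39 ± 0.15, adjusted p = 0.44). Jasmonate output genes had a median of 0.44 (0.36 with median-ratio scaling), with 4 of 11 at an unadjusted p under 0.05. VSP2, a storage protein gene read as a jasmonate output, stood at 1.78, 1.59 and 1.73 FPKM in WT and 3.93, 5.66 and 2.9 FPKM in rdd (0.90 ± 0.35, adjusted p = 0.46). The median of the jasmonate synthesis genes was 0.07 at 1 h and -0.55 at 0 h, where 2 of 14 were called lower. AOC2, an allene oxide cyclase gene of that list, stood at 72.6, 66 and 68.7 FPKM in WT and 38.3, 55.7 and 41.2 FPKM in rdd at 1 h (-0.62 ± 0.29, adjusted p = 0.53). Camalexin genes PAD3 and CYP71A12 were highest in rdd replicate 1, at 13.3 and 28.7 FPKM, and neither was called (adjusted p = 0.39 and 0.47).

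Chromatin genes were not called. The 11 DNA methyltransferase and maintenance genes had a median of 0.30 (0.19 with median-ratio scaling), with 1 at an unadjusted p under 0.05, and the 17 genes of RNA-directed DNA methylation had a median of 0.14 with none. MET1, the maintenance methyltransferase, stood at 3.48, 4.2 and 4.14 FPKM in WT and 5.64, 4.75 and 5.07 FPKM in rdd (0.32 ± 0.16, adjusted p = 0.57). Heat shock genes had a median of -0.18 (-0.30 with median-ratio scaling) and 9 of 11 below 0, with none called and 0 at an unadjusted p under 0.05; their summed level overlapped, at 1202 to 2464 FPKM in WT and 1405 to 2558 FPKM in rdd. The 3 tested loci reported as methylation-dependent had a median of -0.69, all below 0 and none called. Nuclear photosynthesis genes had a median of -0.14 (-0.27 with median-ratio scaling) and 30 of 38 below 0. None of them was called, and 8 had an unadjusted p under 0.05. RBCS3B, a small subunit of the carbon-fixing enzyme RuBisCO, stood at 5752, 5339 and 5226 FPKM in WT and 2982, 4100 and 4193 FPKM in rdd (-0.55 ± 0.14, adjusted p = 0.16; 0.049 with median-ratio scaling). RBCS genes are near-identical copies, so the split of fragments between them is uncertain. Cell division genes had a median of 0.28 (0.17 with median-ratio scaling) and 1 of 11 at an unadjusted p under 0.05.

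Most of the lower genes were lower before flg22 as well. Of the 54 genes, 34 were also called at 0 h, all in the same direction, which is 63.0% of the 1 h calls and 55.7% of the 61 calls at 0 h (0.323% of tested genes). They were 25 of the 31 lower and 9 of the 23 higher genes. At 3 h 32 of the 54 were called, again all in the same direction, 59.3% of the 1 h calls and 17.78% of the 180 calls at 3 h (0.953%), 25 lower and 7 higher. The 3 h count depends on its libraries, of which rdd replicate 2 stands apart (2.85% organelle FPKM, 18555 genes above 0). Without that library 124 genes were called at 3 h, 28 of them among the 54. Leaving out rdd replicate 1 gave 83, rdd replicate 3 gave 1709, and WT replicates 1, 2 and 3 gave 81, 65 and 77, with 24 to 38 of the 54 among them. Without WT replicate 1 of that time AT5G01225, higher in rdd at 1 h, was called lower at 3 h (adjusted p = 0.02), the 1 such case in these fits. The 61 calls at 0 h became 34 without WT replicate 3. These contrasts share no library with the one at 1 h, only the estimate of the spread. 25 genes were called at all 3 times, 21 of them lower. 13 were called at 1 h alone, of which 11 were higher: GLYI7, WAK1, AT1G68620, AT3G22570, ATSBT5.2, ADF8, AT1G30750, ASPG1, AT1G68580, AT2G45290 and AT5G01225. None of these 13 had a genotype difference that changed between 0 h and 1 h at the threshold, and AT1G68620 was the one of the 11 higher genes that stayed called without each library, although not when the fit held the 6 libraries alone.

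**Figure D5:**
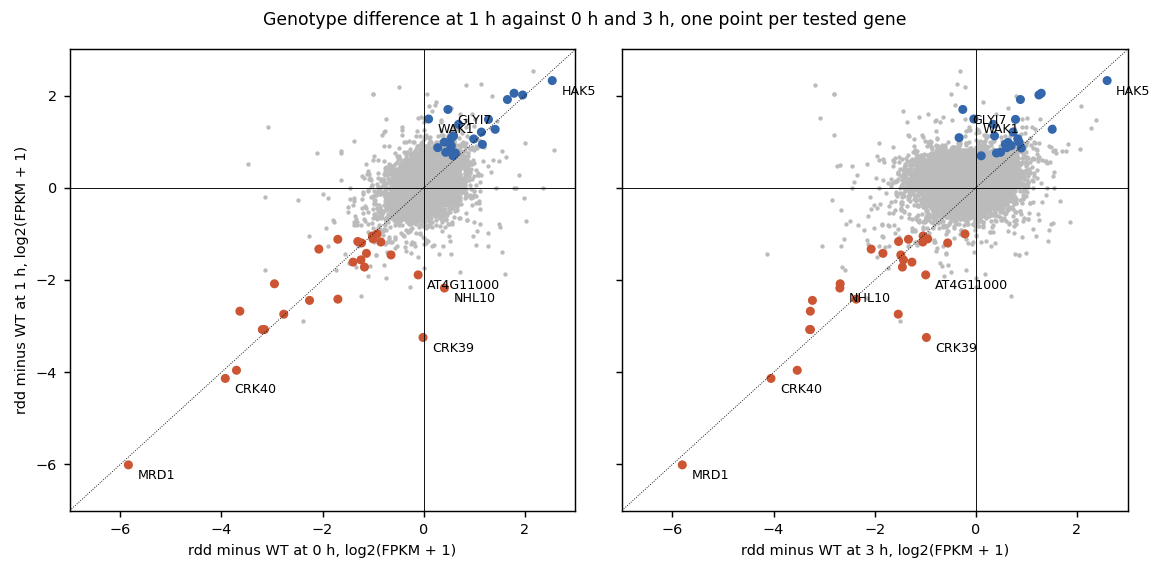
Difference rdd minus WT in log2(FPKM + 1) at 1 h (vertical) against 0 h (left) and 3 h (right), one point per tested gene, grey where not called at 1 h. The 48 genes called at 1 h with no group wholly at 0 are coloured (lower red, higher blue); most of the red ones lie along the dotted line of equal differences, while CRK39 and NHL10 lie near 0 at 0 h.

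In leaves replicate 3 stands apart in all 4 groups, with 0.0734% to 0.0979% organelle FPKM against 3.03% to 5.54% in replicates 1 and 2, and same-numbered libraries deviated together. Fits with the replicate number as a block are therefore given beside the counts. 19 of the 54 genes were too low there to test. Of the 35 tested, 7 were called in water-treated leaves (43.8% of 16 calls, 0.0881% of 18164 genes tested in leaves) and 8 in flg22-treated leaves (25.8% of 31 calls, 0.171%), all in the same direction as in seedlings. With the replicate block 39 genes were called after water (0.215%) and 57 after flg22 (0.314%), 11 and 13 of the 54 among them and in the same direction. Without 1 library the counts fell to between 7 and 10 after water and between 3 and 19 after flg22, the lowest without WT replicate 1 in both. 5 genes were lower in rdd in all 5 conditions: MRD1, CRK40, AT2G33830, AT4G04223 and AT3G21400, the last without its 1 h call when rdd replicate 1 was left out (adjusted p = 0.065). All 5 were called in both leaf treatments with the block, and MRD1 and AT4G04223 also without each leaf library, while the other 3 lost leaf calls without some of them (adjusted p up to 0.15). MSRB5 and MSRB4, also of the chromosome 4 region, were not called in leaves without the block, and their groups overlapped. The differences were -0.30 ± 0.80 after water and -0.71 ± 0.80 after flg22 for MSRB5. For MSRB4 they were -0.31 ± 0.84 and -0.69 ± 0.84. CRK39 and NHL10 were called in leaves after flg22. In water-treated leaves CRK39 stood at 0.67, 0.72 and 0.23 FPKM in WT and 0.06, 0 and 0.13 FPKM in rdd, and NHL10 at 1.95, 0.84 and 0.29 FPKM against 0.34, 0.3 and 0.09 FPKM; CRK39 did not overlap, and neither was called (adjusted p = 1 for each). The genotype differences of the 2 treatments were not shown to differ (interaction adjusted p = 0.39 for CRK39 and 0.57 for NHL10; 0.31 and 0.23 with the block). In flg22-treated leaves CRK39 stood at 3.98, 3.64 and 4.37 FPKM in WT and 0.38, 0.25 and 0.13 FPKM in rdd (adjusted p = 0.0024). NHL10 stood at 55.5, 29.6 and 39 FPKM in WT and 2.35, 4.2 and 1.01 FPKM in rdd there (adjusted p = 0.011; 0.057 with a pseudocount of 0.1, 0.063 without WT replicate 1 and 0.082 without rdd replicate 1). AT3G01345 stood at 59.1, 60.5 and 84.7 FPKM in WT and 0, 0 and 0.12 FPKM in rdd after water, without overlap, and at 43.7, 0 and 128 FPKM in WT and 0, 0 and 0.04 FPKM in rdd after flg22. It was not called in either (adjusted p = 0.43 and 0.94), with 1 WT library after flg22 listed at 0 in a fit that shares its spread over all 12 leaf libraries. HAK5 was too low to test. TMM was called higher in water-treated leaves (adjusted p = 0.014; 0.017 with the block), and that call was lost without any 1 of the 6 libraries (adjusted p = 0.05 to 0.084).

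Along the chromosomes the calls were unevenly spread. Chromosome 4 held 17 called genes of 2841 tested (0.598%), and the other chromosomes held between 0.0917% and 0.326%. Of these 17, 5 lie in the region from RLP46 to MSRB6 described above, and the evenness of the spread was not tested. 10 of the 54 genes had another called gene within 20 annotated genes to either side, in 5 pairs: CRK39 with CRK40, MSRB4 with MSRB5, NHL10 with NHL12, TMM with GLYI7, and AT1G68580 with AT1G68620. Both genes of a pair always differed in the same direction. How many such pairs 54 genes placed anywhere would give was not computed, so this count is a description. AT1G68580 lost its call without each library (adjusted p up to 0.2), and GLYI7 as given above. In the annotation 11 of the 54 genes overlap another gene, among them MRD1, SWEET1, GLYI7 and AT4G11000, and their fragments could be shared with that gene.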

How the data were processed

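Gene values come from the series table, which the authors deposited without naming a unit. The deposited values are not whole numbers, their totals differ between libraries and their smallest values fall with gene length. They were therefore taken to be FPKM computed by the authors, a unit that no label states. Per the submitters' processing notes, HISAT2, featureCounts and DESeq2 were used with the TAIR10 build; versions and the order of steps are not given in the sources used here. FPKM are not counts, so values were taken as log2(FPKM + 1) and tested in R 4.3.3 by limma 3.58.1 (eBayes with trend and robust variances); fold changes on this scale understate those of low genes. A gene was kept if 3 or more of the 18 seedling libraries reached 1 FPKM. The fit held 1 mean for each of 6 groups (both genotypes at 0, 1 and 3 h), with contrasts rdd minus WT at each time and their differences; the 12 leaf libraries were fitted apart. In leaves the replicate numbers were taken to pair the libraries, since deviations from the group means correlated at 0.31 to 0.90 in all 18 same-numbered pairs; this pairing comes from the data, not the labels. P-values are two-sided, with Benjamini-Hochberg adjustment across every tested gene. The scripts were tested on simulated data. The series text calls the repeats independent, but nothing says that libraries came from separate cultures, so p-values measure the spread between these samples.

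Gene names come from RefSeq (TAIR10.1), which matched 32830 of 33597 genes (97.7%); its coordinates are not printed. The genes named are the 4 demethylases, up to 15 called genes per direction with the largest changes, at least 5 FPKM and no overlap, up to 8 per interaction and direction, called list members and up to 4 others per list, and neighbours where position is described; others were chosen after their values were seen. Of 542 list members 31 were left out because the annotation gives their identifier another name, leaving 511. The comparison and the lists were chosen with earlier results of these data known. Alternatives covered the pseudocount, the filter, the libraries in the fit, scaling, organelle genes, a replicate block, the variance model and leaving out each library. The 32 bisulfite libraries were not analysed here.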

Additional observations from a re-analysis of the deposited data

Results flagged for a closer look

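In 2 genes the genotype difference itself differed between times, as tested by the interaction term of the limma fit over 18 libraries. For CRK39 the rdd minus WT difference at 1 h minus that at 0 h was -3.23 (log2; adjusted p = 7.8e-06, and 0.12 with a pseudocount of 0.1), and that at 3 h minus that at 1 h was 2.27 (adjusted p = 0.0014, and 0.49 with a pseudocount of 0.1; the ratio of means rose from 14.4 to 29.0). For NHL10 (YLS9 in the annotation) the difference at 1 h minus that at 0 h was -2.58 (adjusted p = 1.5e-04). In both genes all 3 rdd libraries lay below all 3 WT libraries at 1 h, and at 0 h CRK39 was near 0 in both genotypes. No other gene passed either test. Groups of 3 were too small for a test of outlying samples, although some libraries stood apart in the measures given above.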

How the results depend on the processing

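No gene called at 1 h changed direction at 1 h under any alternative, and 20 of the 54 (15 lower, 5 higher) stayed called under every alternative that tested them. With only the 6 compared libraries in the fit 14 higher genes were called against 23, and with a pseudocount of 0.1 the difference between 1 h and 0 h was called in 1 gene against 2. Leaving out 1 library at a time gave 7 to 25 higher and 20 to 28 lower genes at 1 h, and 2 to 3 genes for the difference between 1 h and 0 h. The other settings gave 16 to 31 higher and 22 to 44 lower genes. Without rdd replicate 2 at 3 h, whose organelle share stands apart, 31 higher and 34 lower genes were called at 1 h. That setting and all those for 0 h, 3 h and leaves were added after seeing the data. At 3 h 294 genes were called with median-ratio scaling, and 65 to 1709 when 1 library was left out; at 0 h it was 34 to 74. The difference between 3 h and 1 h was called in 0 genes with a pseudocount of 0.1 and in 1 to 13 without 1 library. In leaves 39 (water) and 57 (flg22) genes were called with a replicate block and 29 and 38 without all libraries numbered 3; without 1 library it was 7 to 10 and 3 to 19. Replicate numbers did not pair the libraries at 1 h (same-numbered deviations correlated at -0.07, 0.15 and 0.19); with a replicate block 24 higher and 32 lower genes were called, with the block and median-ratio scaling (added later) 18 and 41, and 2 genes for the difference between 1 h and 0 h in both. Of 121 uncalled genes followed, 5 were called under some alternative: EXPA8 and RBCS3B lower with median-ratio scaling, PBS3 higher without rdd replicate 2, TIP2;3 higher without rdd replicate 2 at 3 h, and AT1G51913 lower when the 6 libraries alone were fitted and with either block. The causes were not tested. Read depth is unknown, and low FPKM limit the genes near the 1 FPKM filter.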

Other observations

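In leaves that received water or flg22 and 24 h later the bacterium DC3000 hrcC for 1 h (2 libraries per group, no test), 23 of the 31 genes that were lower in rdd seedlings at 1 h had both rdd libraries below both WT libraries after water, and 24 after flg22. In each treatment 8 of the 31 stood below 1 FPKM in all 4 libraries. The share of all genes separated in this way was not computed there, so these counts are a description. The genes given here were chosen after their values were seen. AT4G11000 stood at 35.7 and 32.7 FPKM in WT and 1.21 and 0.54 FPKM in rdd after water, and at 21.1 and 27.5 FPKM in WT and 1.01 and 1.31 FPKM in rdd after flg22. CRK39 stood at 15.4 and 15.65 FPKM in WT and 0.99 and 0.61 FPKM in rdd after water. NHL10 stood at 242 and 251 FPKM in WT and 13.3 and 33.9 FPKM in rdd after flg22. AT3G01345 stood at 131 and 135 FPKM in WT after water and was listed at 0 in both rdd libraries. WAK1, higher in rdd seedlings at 1 h, stood at 249 and 247 FPKM in WT and 249 and 185 FPKM in rdd after water, and the groups overlapped.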
